A study of Homo sapiens with 2 samples.

Results

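Long noncoding RNAs named LINC followed by digits were described in HepG2 cells loaded with free fatty acids (FFA), in the absence or presence of the retinoid 9-cis-RA. The genes were chosen by their symbol and by a sum of at least 50 counts over both libraries, which 260 of 2266 LINC entries among 60623 gene entries reached. The same sum was reached by 15917 genes of all kinds. HepG2 is a hepatocellular carcinoma line, recorded as wild type, and stands here for the hepatocyte as 1 tumor line. Both groups received 1 mM FFA, oleic and palmitic acid bound to albumin, for 24 h, and the FFA + 9-cis-RA group additionally received 9-cis-RA at 10 μM, a ligand of the nuclear receptors RXR and RAR. Each group had 1 library, both recorded in one batch. The comparison addressed how the transcriptome of steatotic cells differed when 9-cis-RA was added, without separating RXR from RAR. Without replicates no test was possible, so every interval below covers counting error only and compares these libraries rather than the conditions.

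LINC is the naming root given to long intergenic noncoding RNAs without a better-known function. Such transcripts are made by RNA polymerase II, are often spliced and polyadenylated, and as a class are found at lower levels and in fewer tissues than messenger RNAs. Some act at their own locus on a neighboring gene, some act elsewhere in the cell, and for most no role is known.

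Depth was similar, with totals of 60821539 (FFA) and 57669670 (FFA + 9-cis-RA) counts. Counts were poly(A)-selected fragments per gene, counted on the strand of the gene. Retinoid target genes differed in the direction of the labels, with CYP26A1, the retinoic acid-degrading enzyme, at 4 counts in FFA and 709 in FFA + 9-cis-RA. All 10 hepatoma markers were detected, from 278 counts of TTR to 296345 of SERPINA1. Of 6 markers of blood, endothelial and fibroblast cells, the highest was VWF with 184 and 118 counts, and PTPRC and DCN were at 0 in both libraries.

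The promoters of 3 LINC genes are shown first, because the first and second are among the 6 genes whose whole counting interval lay below a log2 fold change of -1, and the third is among the 10 higher genes ranked by the interval bound nearest to 0. Sequences are from RefSeq on GRCh38.p14, run 5′ to 3′ on the strand of the gene, and cover 250 bases before and 50 after the RefSeq start. Capitals mark the forkhead core GTAAACA or the nuclear receptor hexamer AGGTCA on either strand. LINC00261 at chr20:22578593-22578892 on the minus strand held 1 forkhead core and no hexamer, LINC01852 at chr15:38072941-38073240 on the minus strand held neither, and LINC01101 at chr2:120466300-120466599 on the minus strand held 3 hexamers.
LINC00261: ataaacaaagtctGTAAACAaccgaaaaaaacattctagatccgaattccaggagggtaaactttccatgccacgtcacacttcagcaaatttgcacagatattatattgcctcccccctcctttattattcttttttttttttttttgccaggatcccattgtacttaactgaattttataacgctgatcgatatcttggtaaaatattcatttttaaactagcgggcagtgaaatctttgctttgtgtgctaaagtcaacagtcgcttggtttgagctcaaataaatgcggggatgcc
LINC01852: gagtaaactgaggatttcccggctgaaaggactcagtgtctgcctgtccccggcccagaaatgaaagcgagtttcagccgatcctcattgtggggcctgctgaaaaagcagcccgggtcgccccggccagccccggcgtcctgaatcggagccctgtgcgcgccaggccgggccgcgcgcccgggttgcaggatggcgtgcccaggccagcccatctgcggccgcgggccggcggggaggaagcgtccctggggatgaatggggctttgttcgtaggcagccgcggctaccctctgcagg
LINC01101: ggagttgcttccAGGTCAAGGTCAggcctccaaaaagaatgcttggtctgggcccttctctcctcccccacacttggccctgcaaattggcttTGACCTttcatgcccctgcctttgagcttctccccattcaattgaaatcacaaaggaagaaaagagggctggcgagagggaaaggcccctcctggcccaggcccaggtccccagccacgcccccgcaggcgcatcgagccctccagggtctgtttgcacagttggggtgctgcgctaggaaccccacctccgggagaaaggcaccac
The RefSeq start of LINC01101 lies 131 bases from the start used for counting. A pair of its hexamers stands head to tail with a spacing of 0 as AGGTCAAGGTCA, an arrangement held by 6 of all 35116 promoter windows. LINC01101 was picked for its hexamers after the sequences had been seen. Of the other higher genes among the 10 with a window, LINC00910, LINC00963, LINC00355 and LINC00630 held no hexamer, and LINC00662 and LINC00938 held 1 each. The RefSeq start of LINC00963 lies 11714 bases from the start used for counting and that of LINC00910 301 bases, beside 5 to 146 for the others. LINC01996, LINC01484, LINC02413 and LINC02532, the rest of the 6 lower genes, had no entry in the table. Of the next lower genes by the interval bound, LINC00304 held 1 hexamer, and LINC01819 and LINC02119 held none. Their RefSeq starts lie 74 bases from the start used for counting in LINC00304, 1106 or 1119 in LINC01819 and 122912 in LINC02119. The forkhead core and the spacings of 0, 3 and 4 were looked for after the values had been seen.

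The table held 196 windows for 172 of the LINC symbols. AGGTCA on either strand was present in 34 of them (17.3%), against 13.8% of all promoters. It was present in 10 of 63 windows of LINC genes that were lower in FFA + 9-cis-RA and in 6 of 20 windows of those that were higher. Direct repeats of it spaced by 1, 2 or 5 bases, as RAR and RXR bind them together (AGGTCANAGGTCA, AGGTCANNAGGTCA and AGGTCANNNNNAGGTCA), were in no LINC window and in 8, 1 and 2 of all windows. Repeats spaced by 3 or 4 bases, known for RXR with other partners such as the vitamin D receptor and LXR (AGGTCANNNAGGTCA and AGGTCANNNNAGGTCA), were also in no LINC window and in 2 and 7 of all windows. GTAAACA on either strand was in 6.63% of LINC windows and 3.42% of all, with 4 of the 63 windows of lower genes and 2 of the 20 of higher genes. TATAAA on the gene strand was in 6.12% and 7.33%, with 8 of the 63 windows of lower genes and 1 of the 20 of higher genes. Overlaps between motifs were allowed, and a match describes letters in the window, not binding.

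The LINC genes were a small and uneven part of the RNA. Together they took 91410 counts in FFA (0.150% of the library) and 82179 in FFA + 9-cis-RA (0.142%). The log2 ratio of their summed normalized counts, FFA + 9-cis-RA against FFA, was -0.13, and -0.07 without LINC00958 and LINC00668, the most counted pair. The 10 most counted genes held 35.8% of these counts. Levels per transcript length, as TPM (counts divided by exon length and scaled to a common library total), had a median of 2.03 over the 260 genes and ran from 0.0906 to 64.2 as the mean of both libraries. The median was 17.1 TPM over 12500 protein-coding genes and 2.71 over 1781 other long noncoding RNA genes with the same count minimum. A level of 10 TPM was reached by 28 LINC genes, and 75 stayed under 1 TPM.

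At the threshold, LINC02934 (21 counts in FFA and 29 in FFA + 9-cis-RA) and LINC02924 (26 and 24) were just inside. LINC00973 (25 and 24) and LINC02986 (20 and 29) were just outside, with 49 counts in all. A further 1401 LINC entries had no count in either library and 605 had 1 to 49 counts.

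The highest levels belonged to LINC00958 on chromosome 11 (12961541 to 12989597), which has been studied in liver cancer as a promoter of lipid synthesis and growth. It had 8676 counts in FFA and 6326 in FFA + 9-cis-RA, or 71.6 and 56.7 TPM, a log2 difference of -0.43 with an exact 95% interval of -0.48 to -0.38. LINC00668 on chromosome 18 (6919496 to 6929966), studied as growth-promoting in several carcinomas, had 6241 and 4495 counts, 61.1 and 47.8 TPM, and differed by -0.45 (-0.50 to -0.39). The intervals of these differences overlap widely, and both genes were lower with 9-cis-RA.
LINC02575 on chromosome 21 (44485577 to 44490288) stood between them in mean level, with 1128 and 928 counts, 58.9 and 52.6 TPM, and a difference of -0.25 (-0.38 to -0.13). LINC02525 had 1621 and 1326 counts, 46.8 and 41.5 TPM, and differed by -0.26 (-0.37 to -0.16). LINC03037 had 915 and 567 counts, 41.1 and 27.6 TPM, and differed by -0.66 (-0.82 to -0.51). All 5 were therefore lower in FFA + 9-cis-RA by more than counting error.
LINC00857 on chromosome 10 (80207372 to 80219657), studied in lung and other cancers, went the other way, from 1504 counts in FFA to 1896 in FFA + 9-cis-RA (28.6 and 39.1 TPM, difference 0.36, 0.26 to 0.46). LINC02972 had 1352 and 1437 counts, 28.2 and 32.5 TPM, with an interval of 0.01 to 0.22. The intervals of LINC01639 (661 and 585 counts, -0.31 to 0.01) and LINC02990 (305 and 295 counts, -0.26 to 0.22) held 0. LINC02365 on chromosome 4 (184584093 to 184625030) had the largest deficit of the 10, with 926 and 467 counts, 34.8 and 19.0 TPM, and a difference of -0.96 (-1.12 to -0.80).

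**Figure D1:**
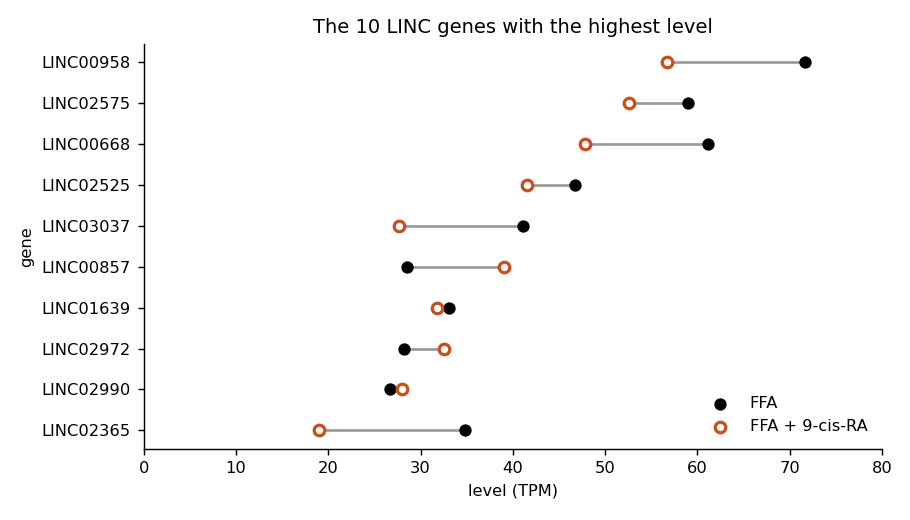
Level in TPM (horizontal axis) of the 10 LINC genes with the highest mean level, with filled circles for FFA and open circles for FFA + 9-cis-RA, 1 library each. LINC00958 is the highest in both, and LINC02365 goes from 34.8 to 19.0 TPM while LINC00857 goes from 28.6 to 39.1 TPM.

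Over all 260 genes the difference leaned toward lower values in FFA + 9-cis-RA. Their log2 fold changes had quartiles of -0.47 and 0.12 around a median of -0.15, against -0.013 over all genes, 0.0022 over protein-coding genes and -0.094 over other long noncoding RNA genes. The log2 fold change was below 0 for 169 LINC genes and above 0 for 91. The classes differ in depth, with a median of 258 counts for LINC genes and 2445 for all genes. Within 50 to 99, 100 to under 500 and 500 or more counts, the LINC medians were -0.18, -0.17 and -0.089. They were -0.074, -0.10 and 0.0037 over all genes and -0.070, -0.094 and 0.0090 over protein-coding genes. Other long noncoding RNAs came to -0.066, -0.11 and -0.099, so the LINC median was not the lower in the last range. The interval lay below 0 for 82 genes (31.5%), beside 30.5% of all genes and 23.8% of other long noncoding RNAs. It lay above 0 for 31 genes (11.9%), beside 27.3% of all genes and 11.4% of other long noncoding RNAs. Over all depths together, the share of lower genes was thus near that of all genes. The share of higher genes was less than that of all genes and near that of other long noncoding RNAs. Within the same count ranges, intervals below 0 took 22.86%, 31.25% and 39.74% of LINC genes. They took 14.54%, 24.77% and 34.02% of all genes, less in each range. Other long noncoding RNAs came to 13.97%, 21.48% and 41.19%, so the LINC share was not the larger in the last range. Intervals above 0 took 4.29%, 9.82% and 21.79% of LINC genes and 9.76%, 12.77% and 33.21% of all genes.

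Larger deficits were more frequent than in the background. A log2 fold change below -1 was found for 20 LINC genes (7.69%), beside 2.27% of all genes and 3.71% of other long noncoding RNAs. The whole interval was below -1 for 6 of them (2.31%), beside 0.873% and 0.786%. A log2 fold change above 1 was found for 1 gene (0.385%), beside 0.961% and 1.68%, and the whole interval was above 1 for none, beside 0.327% and 0.337%.

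Low counts give wide intervals and scattered fold changes, so the shares were also taken within ranges of counts. Within 50 to 99 counts, a fold change below -1 was found for 8 of 70 LINC genes (11.4%), 7.10% of all genes and 5.81% of other long noncoding RNAs. From 100 to under 500 counts it was found for 10 of 112 (8.93%), 5.29% and 3.33%. With 500 or more counts it was found for 2 of 78 (2.56%), 0.884% and 1.67%. Each count range therefore kept a larger share of fold changes below -1 for the LINC genes, resting on 2 genes in the last range. Protein-coding genes in the first and second of these ranges came to 9.48% and 6.99%. This did not hold in each range for whole intervals below -1. These were found for 0, 4 and 2 LINC genes (0%, 3.57% and 2.56%), beside 0.730%, 1.77% and 0.667% of all genes. From 100 to under 500 counts, protein-coding genes came to 2.53%. Intervals had a median width of 1.46 log2 units for the 70 genes under 100 counts and 0.256 for the 39 genes with at least 1000, of which 15 were lower, 12 higher and 12 had an interval holding 0. For the 147 genes whose interval held 0, a difference was not detectable at this depth. The 2 libraries cannot show whether these differences exceed the spread between cultures.

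**Figure D2:**
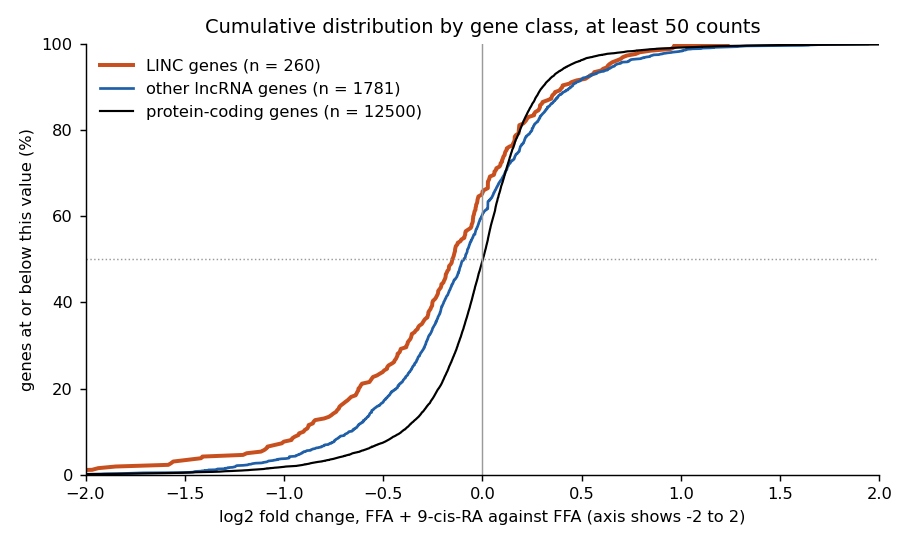
Cumulative share of genes (vertical axis, percent) against the log2 fold change of FFA + 9-cis-RA over FFA (horizontal axis), for LINC genes, other long noncoding RNA genes and protein-coding genes with at least 50 counts. The LINC curve lies furthest to the left below 0, with a median of -0.15 against -0.094 and 0.0022. The classes were not matched for depth, with medians of 258, 168 and 3835 counts.

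**Figure D3:**
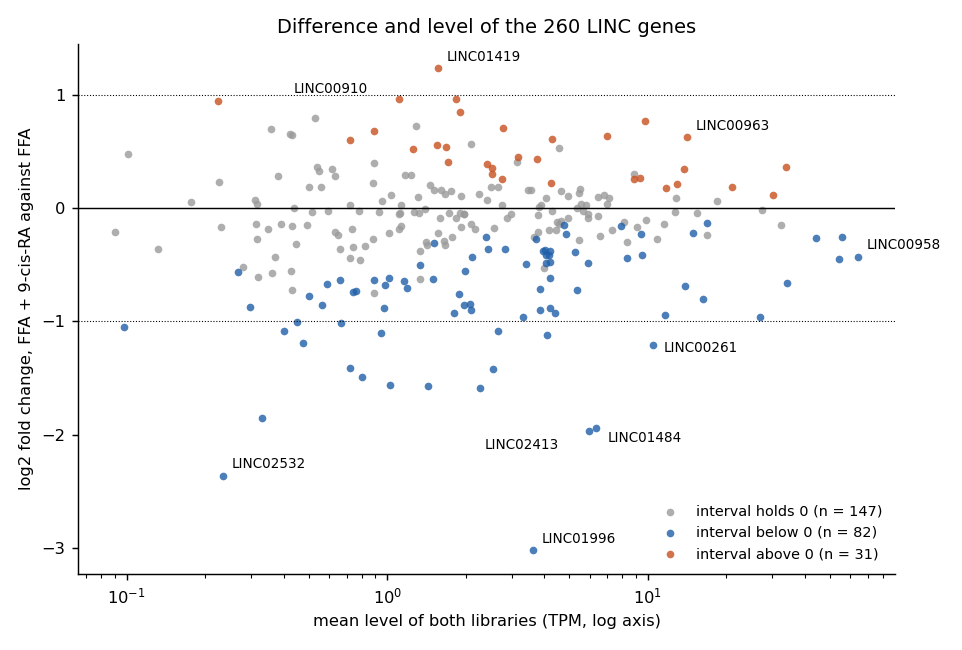
Log2 fold change (vertical axis) against mean level of both libraries in TPM (horizontal log axis), 1 point per LINC gene, colored by whether the exact 95% counting interval lies below 0 (82), holds 0 (147) or lies above 0 (31). Dotted lines mark -1 and 1, and the 20 genes below -1 run from 0.0973 TPM (LINC01091) to 10.5 TPM (LINC00261).

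The 6 LINC genes with a whole interval below -1 were few and of unlike level. LINC01996 on the plus strand of chromosome 17 (4610449 to 4617650) had 172 counts in FFA and 20 in FFA + 9-cis-RA, 6.44 and 0.812 TPM, a log2 fold change of -3.02 (-3.82 to -2.40). LINC01484 on the minus strand of chromosome 5 (173707614 to 173746279) had 1130 and 289 counts, 9.95 and 2.76 TPM, and -1.94 (-2.13 to -1.75). LINC00261 on the minus strand of chromosome 20 (22547671 to 22578642) had 1673 and 711 counts, 14.3 and 6.62 TPM, and -1.21 (-1.34 to -1.08). LINC00261 is transcribed beside the endoderm factor FOXA2, is high in liver and has been studied as growth-restraining in liver cancer. LINC01484 and LINC00261 carried the most counts among these genes and so the narrowest intervals, which do not overlap each other.
LINC02413 on chromosome 12 (92999218 to 93019820) had 246 and 61 counts, 9.37 and 2.52 TPM, and -1.97 (-2.41 to -1.57). LINC02532 on chromosome 6 (106705334 to 106788148) had 114 and 21 counts, 0.39 and 0.078 TPM, and -2.36 (-3.16 to -1.73). LINC01852 on chromosome 15 (38068812 to 38072990) had 123 and 40 counts, 2.13 and 0.75 TPM, and -1.57 (-2.15 to -1.07). The interval of LINC01996 stayed below those of LINC01484, LINC00261 and LINC01852 and overlapped those of LINC02413 and LINC02532.

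Below these stood LINC02363 (86 and 28 counts, -1.56, -2.26 to -0.96), LINC01819 (102 and 35, -1.49, -2.11 to -0.95) and LINC02119 (102 and 37, -1.41, -2.02 to -0.88). LINC00304 had 43 and 11 counts and a difference of -1.85 (-3.04 to -0.96), and 29.7% of its exon length overlapped another gene on the same strand within the body of ACSF3, where counted reads can be lost. The other genes past -1 had 56 to 444 counts in all, and LINC02983 was the most counted of them with 306 and 138 (-1.12, -1.42 to -0.83). Among genes with at least 1000 counts that missed -1, LINC02348 (842 and 449 counts, -0.88, -1.05 to -0.71) and LINC00513 (1016 and 573 counts, -0.80, -0.95 to -0.65) were next to LINC02365.

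On the higher side the differences were smaller. LINC00910 on chromosome 17 (43338741 to 43389199) had 164 counts in FFA and 315 in FFA + 9-cis-RA, a log2 fold change of 0.96 (0.69 to 1.25), and ranked first by the interval bound nearest to 0. LINC01419, studied in hepatocellular carcinoma, was the gene past 1, with 28 and 66 counts and 1.24 (0.61 to 1.96). LINC01101 had 47 and 91 counts and 0.97 (0.46 to 1.52). These intervals all held 1 and overlapped each other.
LINC00963 on chromosome 9 (129476946 to 129513687), studied first in prostate cancer, had the most counts of the higher genes, with 3143 and 4769, 10.6 and 17.5 TPM, and 0.63 (0.56 to 0.69). LINC01814 had 575 and 921 counts and 0.71 (0.56 to 0.86). LINC02916 had 110 and 185 counts and 0.77 (0.43 to 1.13). The remaining 4 were LINC00355 (0.61, 0.34 to 0.88), LINC00630 (0.60, 0.28 to 0.93), LINC00938 (0.44, 0.29 to 0.59) and LINC00662 (0.39, 0.29 to 0.49), with 331 to 3213 counts in all.

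**Figure D4:**
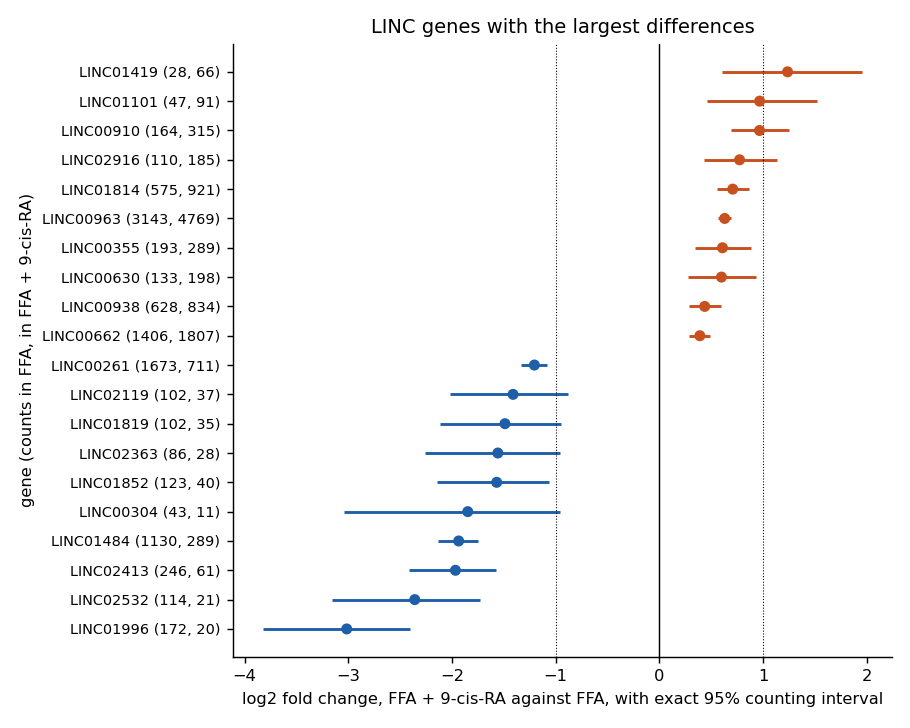
Log2 fold change of FFA + 9-cis-RA over FFA (horizontal axis) with exact 95% counting intervals as bars, for the 10 higher and 10 lower LINC genes whose interval bound lies furthest from 0, with the counts of both libraries beside each name. The 6 lower genes LINC01996, LINC01484, LINC02532, LINC02413, LINC00261 and LINC01852 lie wholly below -1, and no higher gene lies wholly above 1.

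Of 15 LINC genes listed as enriched in liver, 14 had a symbol in the files and 5 reached the count minimum, with a median of -0.20 beside -0.15 for all LINC genes. The interval was below 0 for LINC00261 and held 0 for the other 4, which were LINC01348 (265 and 218 counts, -0.52 to 0.01), LINC00574 (235 and 201, -0.48 to 0.08), LINC01485 (144 and 124, -0.55 to 0.17) and LINC02428 (38 and 47, -0.31 to 0.99). Over all genes with at least 50 counts, 30.5% had an interval below 0. A further 6 of the list had 1 to 49 counts and 3, LINC01702, LINC02027 and LINC01370, had none. The listed LINC01146 is now named HISLA and was not counted among the 5. HISLA had 344 and 202 counts, and its interval lay below 0 (-0.998 to -0.486). Liver-secreted protein genes differed unevenly between the same libraries. AFP had 273242 and 134862 counts (-0.99), AHSG 62012 and 32791 (-0.89) and ALB 186609 and 112866 (-0.70). APOA1 with 109241 and 110072 counts (0.039) and SERPINA1 with 294592 and 296345 (0.036) were nearly level. Less RNA per cell and fewer cells of a given state cannot be told apart in bulk RNA, and the part of the markers' differences in the LINC values was not tested.

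Of 22 LINC genes listed as growth-promoting in hepatocellular or other carcinomas, 19 had a symbol and 14 reached the minimum, with a median of 0.042. The interval was above 0 for 5, LINC00963, LINC00205 (1872 and 2335 counts, 0.35, 0.26 to 0.43), LINC00662, LINC00467 (207 and 269, 0.40, 0.14 to 0.67) and LINC01419. It was below 0 for 3, LINC00958, LINC00511 (2965 and 2480, -0.23, -0.31 to -0.15) and LINC01234 (389 and 269, -0.50, -0.73 to -0.28). For the other 6 it held 0. Over all genes with at least 50 counts, the interval was above 0 for 27.3% and below 0 for 30.5%. The list thus had members on both sides, and 4 more had 1 to 49 counts and 1 had none. The listed LINC00346 is now named PRECSIT and was not counted among the 14. It had 142 and 148 counts, and its interval held 0 (-0.25 to 0.43).

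To place the LINC genes beside their surroundings, each was set against its nearest protein-coding gene. Of the 260, 211 had a neighbor with at least 50 counts, at a median distance of 9822 bp and with 199 different neighbors. The fold changes had the same sign in 103 pairs (48.8%). Pearson's r was 0.116 and Spearman's rho 0.0627 across these pairs, which share libraries and sometimes a neighbor. Where both intervals excluded 0, in 57 pairs, a lower LINC gene stood beside a lower neighbor in 22 and a higher neighbor in 18, and a higher LINC gene beside a lower neighbor in 10 and a higher one in 7. Among the 106 pairs within 10 kb the sign was the same in 47.

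Single loci are described next. LINC01996 starts 2130 bp past the end of SMTNL2, a smoothelin-like gene on the same strand, which had 440 and 207 counts (-1.06, -1.31 to -0.82), so that both were lower and the LINC gene by more. LINC00261 starts 2363 bp past the end of FOXA2 on the same strand, and FOXA2 had 3448 and 2706 counts (-0.32, -0.40 to -0.25), a smaller deficit whose interval does not overlap that of LINC00261. At both loci the LINC gene differed more than the gene before it. Whether reads running past the end of the upstream gene add to these LINC counts was not tested, and 76 LINC genes had a same-strand gene ending within 10 kb upstream, 24 of the 82 lower genes and 12 of the 31 higher.
LINC01484 had no such gene, and its nearest, BOD1, lay 90955 bp away with a fold change of -0.20. EEA1 lay 69887 bp from LINC02413 with -0.03, and 32.7% of the exon length of LINC02413 overlapped a gene on the opposite strand. LINC01814 lay 85942 bp from ID2, an inhibitor of helix-loop-helix factors, which had 18565 and 22162 counts (0.28, 0.25 to 0.31). LINC00938 lay 1931 bp from ARID2, a chromatin remodeling subunit on the opposite strand, with 1558 and 1847 counts and 0.27, so both pairs were higher with 9-cis-RA. These pairs do not stand for the higher LINC genes, of which 10 had a lower neighbor and 7 a higher one where both intervals excluded 0.

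**Figure D5:**
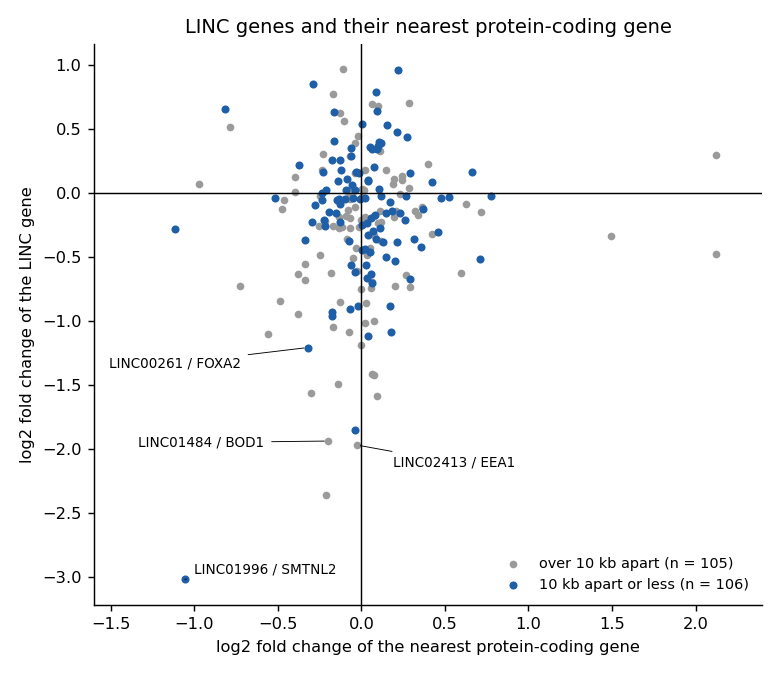
Log2 fold change of each LINC gene (vertical axis) against that of its nearest protein-coding gene (horizontal axis), FFA + 9-cis-RA over FFA, for 211 pairs with at least 50 counts in the neighbor, blue where 10 kb apart or less and gray otherwise. The points form no line (Pearson's r 0.116), with LINC01996 and SMTNL2 lower left.

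LINC genes that lie next to each other did not always differ alike. LINC01291 (52 and 25 counts, interval -1.78 to -0.31) and LINC01293 (97 and 35, -1.42, -2.04 to -0.87) follow each other on one strand 1840 bp apart, and both were lower. LINC01485 lies 32248 bp from LINC01484 and differed by -0.19 (-0.55 to 0.17), an interval that does not overlap that of LINC01484. LINC01503 (64 and 27 counts, -1.19, -1.92 to -0.55) was lower while LINC00963, 117405 bp away, was higher. LINC01128 (871 and 1052 counts, 0.30, 0.17 to 0.43) and LINC00115 (132 and 93 counts, -0.47, -0.88 to -0.08) overlap on opposite strands and differed in opposite directions.

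The structure of the LINC genes was set beside their direction. Summed exon length had a median of 3171.5 bases over all 260, 2769.5 over the lower genes and 4365 over the higher. A single exon block was found in 34, among them 7 of the 82 lower genes and 5 of the 31 higher. The median level was 2.75 TPM for lower and 2.77 TPM for higher genes, and 1.62 TPM where the interval held 0. Opposite-strand exon overlap was present in 73 genes, 19 of them lower and 10 higher, and same-strand overlap in 32, none over more than 50% of its length. GENCODE release 29 called 208 of them lincRNA, 37 another long noncoding type, 11 a pseudogene type and 2 protein-coding. The protein-coding pair were LINC02693 (2975 and 3512 counts, 0.27, 0.20 to 0.34) and LINC03040 (44 and 28 counts). The symbol LINC01605 was carried by 2 entries, and both were kept.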

How the data were processed

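RNA sequencing of HepG2 cells treated with FFA or FFA + 9-cis-RA was measured in 1 library for each of 2 groups. For each gene the authors deposited unnormalized fragment counts made with featureCounts version 2.0.1 (strand setting 2, read pairs, no multi-mapping or multi-overlapping reads). The build was GRCh38 per the submitters' processing notes, and the aligner and annotation release are not given in the sources used here. The exon lengths in the deposited files were used for TPM. Of 60623 entries, 42005 had a symbol and 58516 an identifier in GENCODE release 29, which supplied gene types.

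R version 4.3.3 gave size factors over all entries with DESeq2 version 1.42.0 and TMM factors with edgeR version 4.0.16, both for scaling alone, since no model can be fitted with 1 library per group. They were 1.01 for FFA and 0.990 for FFA + 9-cis-RA. Log2 fold changes used normalized counts with a pseudocount of 1, which understates changes of low counts. Exact 95% Clopper-Pearson intervals of the share of a gene's counts, without pseudocount, used Python 3.11.15 and scipy 1.17.1. These intervals cover counting error only and treat each fragment as an independent draw. PCR duplicates are not independent molecules, so where present they make the intervals too narrow. The steps were tested on simulated data.

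Named genes were the 10 highest by mean TPM, the 10 higher and 10 lower by the interval bound nearest to 0, genes with the whole interval past 1 or -1, members of both lists, and genes at the threshold. The other genes named, with adjacent and renamed genes, were picked after their values were seen. The genes and lists were chosen with earlier results of these data known. Lists and stated roles rest on general knowledge, not on the files. Results were recomputed with TMM or total-count scaling, with pseudocounts of 0.1 and 5, with minimums of 10 and 100 counts, and after removal of genes with same-strand overlap. The neighbor of 1 named gene is not reported here.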

Additional observations from a re-analysis of the deposited data

How the results depend on the processing

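With 1 library per group, no replicate could be left out, and no paired analysis was possible because each group held 1 library and no test was made. Between a minimum of 10 counts (444 LINC genes) and of 100 counts (190 genes), the number below -1 went from 47 to 12 and the number above 1 from 33 to 0. With the minimum of 10, the interval was above 0 for 52 genes and the whole interval above 1 for 3. Total-count scaling moved the log2 scale by 0.049, leaving 3 genes above 1 and 18 below -1 with the interval above 0 for 46, and TMM moved it by 0.020. The median stayed between -0.18 and -0.10 under all alternatives. Of 120 values of 30 named genes, 119 stayed within their counting interval, and LINC00958 came to -0.38 with total counts. LINC02990, whose interval held 0, changed sign with total counts, from -0.020 to 0.029. Depth limits the 70 genes under 100 counts most.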

Other observations

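Some genes that carried a LINC symbol in GENCODE release 29 now have another name and so were not among the 260. There were 25 with at least 50 counts, with a median log2 fold change of -0.13 and the interval above 0 for 2, below 0 for 10 and holding 0 for 13. Among all genes with the same minimum, 27.3% had an interval above 0 and 30.5% below 0. HISLA, formerly LINC01146 and on the liver list under that name, had 344 counts in FFA and 202 in FFA + 9-cis-RA (-0.74, upper bound -0.49). GREP1, formerly LINC00514, had 55 and 25 counts (-1.08, -1.85 to -0.40). CHASERR, formerly LINC01578, the transcript before the chromatin remodeler gene CHD2, had 1100 and 1012 counts, with an interval of -0.22 to 0.03.

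Among the 184 LINC genes with 10 to 49 counts the median was -0.0035, and the interval was above 0 for 21 and below 0 for 14. The whole interval was above 1 for 3, which none of the 260 had, and below -1 for 1. The same shares over all genes with 10 to 49 counts were not taken, so these counts cannot be set against a background. LINC02593 on chromosome 1 (916865 to 921016) had 3 counts in FFA and 36 in FFA + 9-cis-RA (interval 1.95 to 5.96). It lies 2912 bp from SAMD11 on the opposite strand, which had 24 and 106 counts (1.52 to 2.87). LINC01165 had 5 and 28 counts (1.12 to 4.24) and LINC01749 had 6 and 31 (1.11 to 3.95). LINC01519, the gene wholly below -1, had 11 counts in FFA and 0 in FFA + 9-cis-RA (upper bound -1.30).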
